A study of Mus musculus with 6 samples.

Results

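The genes described here are 10 transcription regulators of red cell and megakaryocyte development: the GATA factors Gata1, Gata2 and Gata3, the GATA cofactor gene Zfpm1, the complex partners Tal1, Lyl1, Lmo2 and Ldb1, and the lineage factors Klf1 and Nfe2. They were taken by symbol from a table of 24054 genes, and all 10 reached the level needed for testing, as did 12223 genes in all. RNA-seq had been run on c-Kit+ spleen cells of 6 mice, 1 library per mouse, with beads against CD117 (c-Kit, a receptor of blood progenitors) used for the selection. The 3 AML mice (acute myeloid leukaemia) had the genotype Flt3ITD/ITD,Dnmt3afl/- MxCre. By usual notation this means 1 floxed and 1 null allele of Dnmt3a. MxCre is Cre driven by the interferon-inducible Mx promoter, which is active in blood cells and in other tissues. The 3 MPN mice (myeloproliferative neoplasm) were Flt3ITD/ITD,Dnmt3afl/fl, and no Cre is named for them. All 6 mice therefore carried the internal tandem duplication of the Flt3 receptor on both alleles, and Dnmt3a genotype, Cre and disease changed together between the groups. The labels call the AML mice moribund and the MPN mice controls, and give no age.

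GATA factors are zinc finger proteins that bind the DNA sequence GATA. GATA2 acts in stem and early progenitor cells, and GATA1 takes its place at shared sites as red cells and megakaryocytes mature. GATA1 works together with FOG1, the product of Zfpm1, and with a complex in which TAL1 or its relative LYL1 binds DNA with an E protein while LMO2 and LDB1 hold the parts together. KLF1 then switches on adult globin and other red cell genes through CACCC boxes, and NFE2, paired with a small Maf protein, is needed to make platelets. GATA3 is best known for T cells and innate lymphoid cells.

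In AML, Gata2, Gata3, Nfe2 and Lmo2 rose and Klf1 fell, while Gata1 lay lower in every AML mouse without passing the threshold. Tal1, Zfpm1, Lyl1 and Ldb1 did not pass either. Levels are given as TPM, transcript abundance scaled to a fixed library total and corrected for gene length. Changes are log2 fold changes of TPM + 1, AML minus MPN, tested with limma and adjusted by Benjamini-Hochberg over all 12223 genes. At an adjusted p under 0.05, 5 of the 10 genes passed, 4 higher and 1 lower, against 30.1% of all tested genes. By direction, 20.1% of all tested genes were called higher and 10.01% lower. The AML and MPN mice did not overlap for 6 of the 10 genes, against 50.9% of all tested genes. Non-overlap among the 10 was thus near its share in the table as a whole. Over the whole table the median change was 0.13 on the log2 scale.

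The sequence before a RefSeq start of the pair that lay lower, Gata1 and Klf1, is set beside that of Gata2, which rose. For Gata1 this start lies inside the longer GENCODE span of the gene given below, not at its end. RefSeq windows on GRCm38.p6 were found for 8 of the 10 genes, and 250 bases upstream of each start were searched on both strands. Matches to a pair of motifs are marked in capitals: the GATA site, which is GATAA or GATAG after an A or a T, and the CACCC box, either as such or as the reverse complement. The stretches lie at chrX:7967911-7968160 on the minus strand for Gata1, at chr8:84901732-84901927 on the plus strand for Klf1, ended before its first annotated exon, and at chr6:88193641-88193890 on the plus strand for Gata2.
Gata1: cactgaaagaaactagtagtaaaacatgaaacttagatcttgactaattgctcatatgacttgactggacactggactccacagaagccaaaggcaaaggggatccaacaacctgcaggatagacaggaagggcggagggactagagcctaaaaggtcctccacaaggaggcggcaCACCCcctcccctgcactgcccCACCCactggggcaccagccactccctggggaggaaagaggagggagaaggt
Klf1: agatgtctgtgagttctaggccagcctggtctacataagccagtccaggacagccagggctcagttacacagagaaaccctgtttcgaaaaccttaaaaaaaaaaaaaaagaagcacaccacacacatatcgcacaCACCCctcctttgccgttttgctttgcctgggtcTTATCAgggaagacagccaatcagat
Gata2: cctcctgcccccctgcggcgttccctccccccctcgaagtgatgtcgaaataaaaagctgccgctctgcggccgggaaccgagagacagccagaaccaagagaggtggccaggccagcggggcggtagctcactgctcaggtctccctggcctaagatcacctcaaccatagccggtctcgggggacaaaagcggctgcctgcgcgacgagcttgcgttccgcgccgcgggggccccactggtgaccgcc

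The Klf1 stretch held 1 GATA site and 1 CACCC box, the Gata1 stretch 2 CACCC boxes, and the upstream Gata2 stretch neither, while the downstream Gata2 window, not printed, held 1 CACCC box. The Klf1 stretch is 196 bases long, and its full window of 250 bases held the same counts. Of 32851 windows of 250 bases over all genes, 26.5% held a GATA site and 52.0% a CACCC box. The windows also differed in CG dinucleotides, the site of DNA methylation. There were 2 in the Gata1 window, 3 in the Klf1 window and 5 in the Lyl1 window of 250 bases. The Gata2 windows held 22 and 24, the Gata3 window 19, the Zfpm1 window 28, the Tal1 windows 6 and 16 and the Ldb1 windows 40, 22 and 4, with a median of 6 over all windows. High counts thus occurred both in genes that rose and in genes that did not pass. Such matches describe these letters only, and methylation was not measured in these files.

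By GENCODE M21 on GRCm38, all 10 are protein-coding genes. The minus-strand gene Gata1 (ENSMUSG00000031162) spans X:7959260-7978071, and the plus-strand gene Gata2 (ENSMUSG00000015053) spans 6:88193891-88207032. Klf1 (ENSMUSG00000054191, 8:84901928-84905291) and Lyl1 (ENSMUSG00000034041, 8:84701457-84704715) share the plus strand of chromosome 8 and are 197213 bases apart. Nfe2 (ENSMUSG00000058794, 15:103248212-103258403) and Gata3 (ENSMUSG00000015619, 2:9857078-9890034) are read from the minus strand, and Lmo2 (ENSMUSG00000032698, 2:103957986-103981878) from the plus strand.

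A few properties of the libraries bear on these genes. Depth relative to the other libraries, as the smallest RPKM steps show it, was 0.749 to 1.31 in AML and 0.949 to 1.06 in MPN. The file headers put MPN replicate 1 in a sequencing run of its own. The female-specific RNA Xist reached 186 and 194 TPM in the first and second AML replicate and at most 0.06 TPM in the remaining libraries, so that females occurred in AML only. Dnmt3a stood at 11.5 to 13.5 TPM in AML and 29.3 to 33.9 TPM in MPN. The selection marker Kit was read at 99.2 to 130 TPM in AML and 145 to 152 TPM in MPN, and the progenitor genes Cd34, Myb and Mpo were present in every library, at 42.6 TPM or more. Of 12 genes of c-Kit+ progenitors and of the myeloid cells they give rise to, 4 rose, 3 fell and 5 did not pass, with a median of 0.26 on the log2 scale. The share called was 58.3%, against 30.1% of all tested genes. Those with the smallest p were Cd34, Ctsg, Ptprc and Itgam, with log2 fold changes of 2.73, 1.90, -1.09 and -1.68. In bulk RNA, fewer cells of a type and less RNA per cell cannot be told apart.

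**Figure D1:**
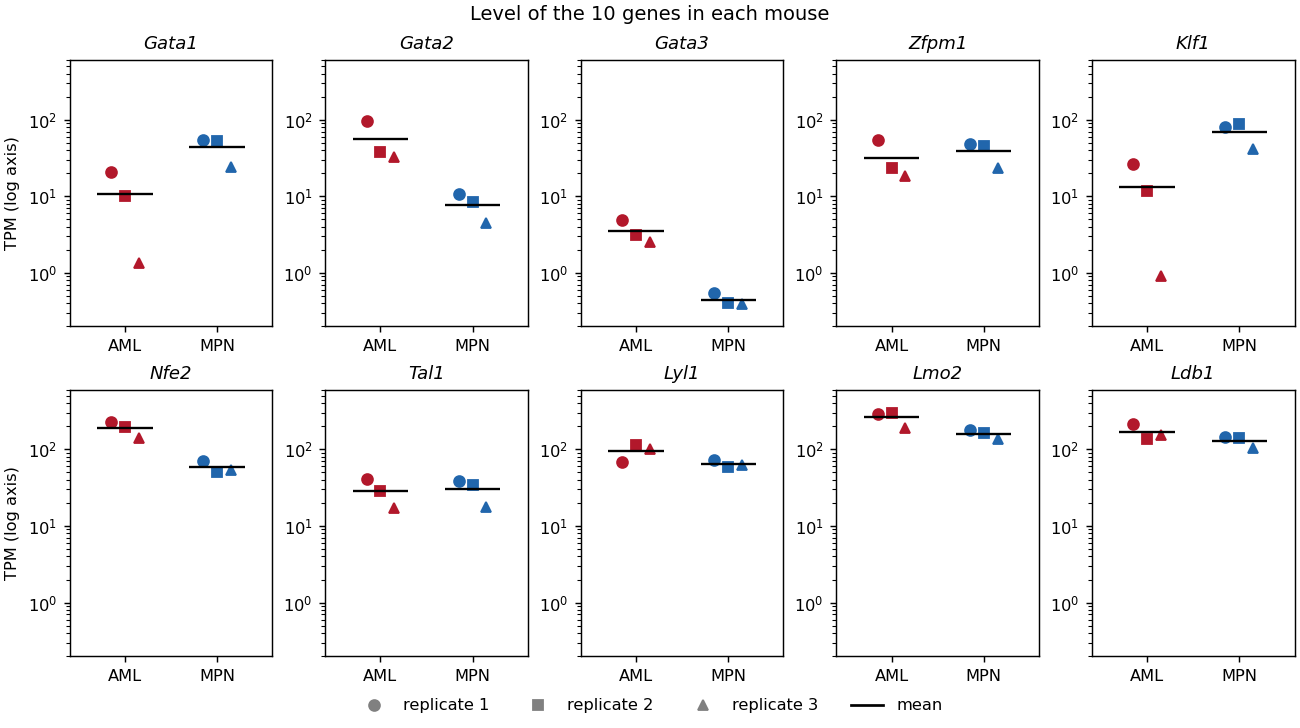
Level of each of the 10 genes in TPM on a log axis, with the 3 AML mice on the left and the 3 MPN mice on the right of each panel. Symbols mark the replicates and lines the means; Gata2, Gata3, Nfe2 and Lmo2 are higher in every AML mouse, and Gata1 and Klf1 lower in every AML mouse, than in any MPN mouse.

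With mice in the order of their replicate numbers here and throughout, Gata2 was read at 97.2, 38.1 and 32.3 TPM in AML, and at 10.6, 8.35 and 4.47 TPM in MPN. The lowest AML mouse was thus well above the highest MPN mouse. The mean of 55.9 ± 35.9 TPM in AML was 7.16 times that of 7.81 ± 3.10 TPM in MPN (SD, n = 3 each), with a log2 fold change of 2.58 ± 0.44 (SE) and a limma adjusted p of 0.00577. With a term for sex, which leaves only the single male AML mouse, replicate 3, to carry the comparison with MPN, the change was 1.99 and the limma adjusted p 0.0763.

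Gata1 was read at 20.7, 9.97 and 1.36 TPM in AML, and at 53.8, 53.2 and 24.0 TPM in MPN. All AML mice were below all MPN mice, but AML replicate 1 came close to MPN replicate 3, and the AML mice spanned a 15.2-fold range against 2.24-fold in MPN. The log2 fold change was -2.35 ± 0.76 (SE), with a limma adjusted p of 0.0523. In 8 of 16 alternative fits Gata1 passed, with log2 fold changes between -4.15 and -1.45 over all 16. One of these was the fit to the RPKM table, with values of 5.50, 2.85 and 0.390 RPKM in AML and 13.9, 13.9 and 6.75 RPKM in MPN (limma adjusted p = 0.0417). Others left out AML replicate 1 (-3.04, limma adjusted p = 0.0166) or AML replicate 3 (-1.45, limma adjusted p = 0.0399). The most negative value came with a term for sex (-4.15, limma adjusted p = 0.00716). Gata1 is on the X chromosome, and its highest AML values were those of the female mice, replicates 1 and 2. Klf1, on chromosome 8, had the same order, at 26.7, 11.9 and 0.910 TPM in AML replicates 1 to 3. With a term for sex only AML replicate 3 carried the comparison with MPN, so the part of sex in these values was not tested.

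The order of the 2 factors turned round between the groups. Transcripts of Gata2 outnumbered those of Gata1 by 4.71, 3.82 and 23.8 to 1 in AML replicates 1 to 3, while the ratio was 0.197, 0.157 and 0.187 in MPN replicates 1 to 3. In MPN the ratio was thus nearly the same in each mouse, although MPN replicate 3 had lower levels of both genes. As log2(Gata1 TPM + 1) minus log2(Gata2 TPM + 1), the mean was -2.61 ± 1.06 in AML and 2.32 ± 0.19 in MPN (SD, n = 3 each). The difference of -4.93 had an exact two-sided permutation p of 0.1, the smallest that 3 mice against 3 allow.

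**Figure D2:**
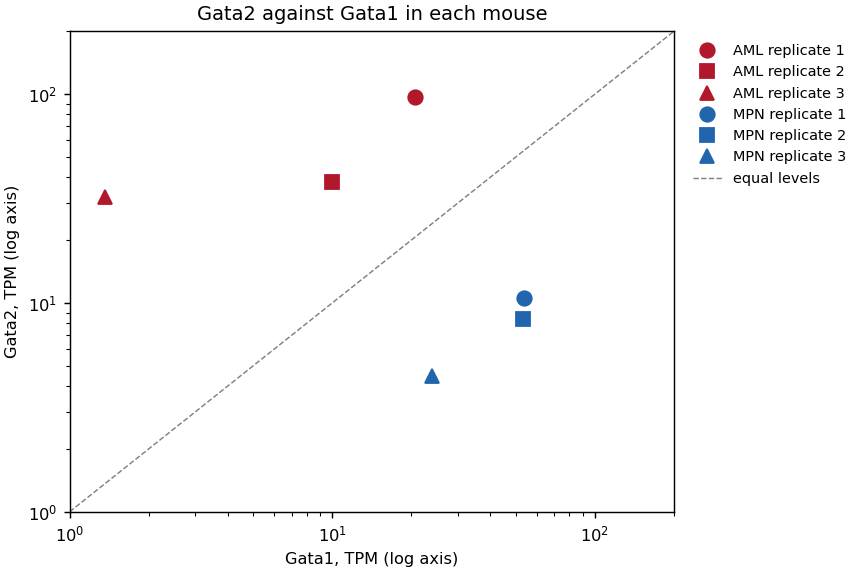
Gata2 against Gata1 in TPM in each of the 6 mice, both on log axes, with a dashed line where the levels are equal. The 3 AML mice lie above the line, at Gata2 to Gata1 ratios of 3.82 to 23.8, and the 3 MPN mice below it, at 0.157 to 0.197.

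Gata3 had the lowest mean of the 10 in both groups, at 4.87, 3.15 and 2.56 TPM in AML and 0.540, 0.400 and 0.390 TPM in MPN. The groups were far apart relative to their spread. The mean of 3.53 ± 1.20 TPM in AML was 7.95 times that of 0.443 ± 0.0839 TPM in MPN (SD, n = 3 each), with a log2 fold change of 1.62 ± 0.22 (SE) and a limma adjusted p of 0.00235. At such low levels the pseudocount sets the size of the log2 change, which was 2.70 with a pseudocount of 0.1 and 0.64 with one of 5, and Gata3 passed in all 14 alternative fits that included it. In the RPKM table it was below the filter, at 1.37, 0.925 and 0.711 RPKM in AML and 0.141, 0.109 and 0.117 RPKM in MPN. In TPM the ratio of Gata3 to Gata2 was 0.0501 to 0.0827 in AML and 0.0479 to 0.0872 in MPN, so the groups overlapped.

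Zfpm1 was read at 54.4, 23.2 and 18.6 TPM in AML, and at 48.0, 45.7 and 23.6 TPM in MPN. AML replicate 1 had the highest value of all 6 and the other AML mice were near or below MPN replicate 3, so the groups overlapped. The log2 fold change was -0.37 with a 95% interval of -1.36 to 0.62 (limma adjusted p = 0.532). Relative to Gata1 there was more Zfpm1 in AML, with 2.63, 2.33 and 13.7 transcripts per Gata1 transcript, against 0.892, 0.859 and 0.985 in MPN. These ratios did not overlap, and the denominator was low in AML replicate 3.

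Tal1, the basic helix-loop-helix core of the complex, was read at 40.5, 28.4 and 17.0 TPM in AML, and at 38.8, 34.5 and 17.5 TPM in MPN. The groups covered the same range. The log2 fold change of -0.08 had a 95% interval of -0.96 to 0.80 (limma adjusted p = 0.883), so changes of almost 2-fold either way are within its error. Its relative Lyl1 stood at 69.0, 114 and 100 TPM in AML and 72.2, 58.9 and 62.4 TPM in MPN. AML replicate 1 fell among the MPN mice and the other AML mice above them, and Lyl1 did not pass, with a log2 fold change of 0.52 ± 0.19 (SE) and a limma adjusted p of 0.0810. Without AML replicate 1 it passed, at 0.73 with a limma adjusted p of 0.00863.

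Lmo2, the bridging LIM-only factor, had the highest mean of the 10 in both groups, at 291, 301 and 193 TPM in AML and 177, 166 and 138 TPM in MPN. The lowest AML mouse was just above the highest MPN mouse. The log2 fold change was 0.68 ± 0.19 (SE) with a limma adjusted p of 0.0335, and the call was not firm. It ended in 8 of 16 alternative fits, among them those without AML replicate 1 or 2 (limma adjusted p = 0.0767 and 0.0935) and without MPN replicate 1, 2 or 3 (0.0593, 0.0806 and 0.111). With a term for sex the change was 0.27 (limma adjusted p = 0.412). Ldb1, the LIM-binding partner, stood at 217, 135 and 152 TPM in AML and 144, 139 and 105 TPM in MPN, with overlapping groups and a limma adjusted p of 0.213.

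Klf1 was read at 26.7, 11.9 and 0.910 TPM in AML, and at 79.5, 87.6 and 41.5 TPM in MPN. Every AML mouse was below every MPN mouse, and AML replicate 3 held almost no Klf1 transcripts. The log2 fold change was -2.93 ± 0.88 (SE), with a limma adjusted p of 0.0424, and the call ended in 7 of 16 alternative fits, in which the limma adjusted p reached 0.114. The fits that ended it left out AML replicate 2 or MPN replicate 1, 2 or 3 (limma adjusted p of 0.0690, 0.106, 0.114 and 0.0874), or used a pseudocount of 0.1, no filter or no trend. Klf1 lay close to Gata1 in level, with 1.29, 1.19 and 0.669 Klf1 transcripts per Gata1 transcript in AML and 1.48, 1.65 and 1.73 in MPN.

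Nfe2 was read at 228, 196 and 141 TPM in AML, and at 70.3, 50.7 and 53.4 TPM in MPN. The lowest AML value was about 2 times the highest MPN value. The mean was 188 ± 44.4 TPM in AML and 58.1 ± 10.6 TPM in MPN (SD, n = 3 each), a ratio of 3.24, with a log2 fold change of 1.67 ± 0.20 (SE) and the smallest limma adjusted p of the 10, 0.00159. Nfe2 passed in all 16 alternative fits, with log2 fold changes of 1.27 to 1.86. Its order among the 10 by mean level was 2 in AML and 5 in MPN, while Klf1 was 8 in AML and 3 in MPN.

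**Figure D3:**
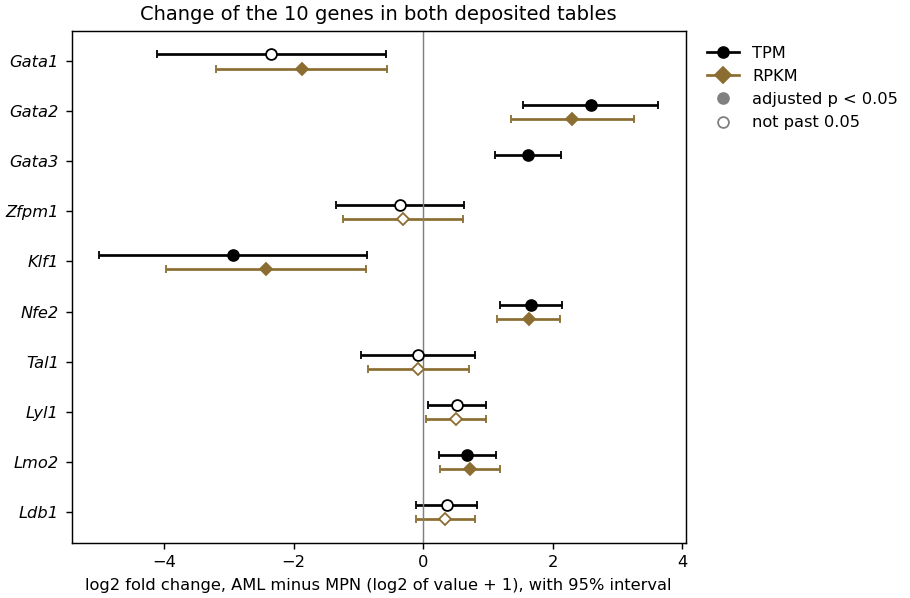
Log2 fold change of each gene, AML minus MPN, with its 95% interval, from the TPM table (circles) and the RPKM table (diamonds), filled where the adjusted p is under 0.05. The tables gave close values, with Gata1 past the threshold only in RPKM, and Gata3 was below the filter in RPKM.

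The mice of a group differed together over many of the 10 genes. AML replicate 1 had the highest AML value for 8 genes and AML replicate 3 the lowest AML value for 8, and MPN replicate 3 had the lowest MPN value for 8. The median log2 level of all tested genes had the same order. It was 4.639, 4.595 and 4.581 in AML and 4.615, 4.559 and 4.389 in MPN. Whether the order is particular to the 10 genes was not tested. The range within AML was widest for Klf1, at 29.3-fold, and Gata1, at 15.2-fold, and was 3.01-fold or less for the other 8, while no gene spanned more than 2.37-fold in MPN. Likeness was measured as the root mean square difference of log2(TPM + 1) over the 6 libraries, each gene centred on its own mean. By this measure Zfpm1 and Tal1 differed by 0.249, and by 0.256 and 0.221 with a pseudocount of 0.1 and 5. Gata3 and Nfe2 differed by 0.135, the smallest value of the 45 pairs, but by 0.523 and 0.509 with a pseudocount of 0.1 and 5. Their likeness thus depended on the pseudocount of 1, beside which Gata3 was low in MPN, and the ratios of their means were 7.95 and 3.24. Gata2 and Klf1 were the least alike pair, at 2.88, and Gata3 and Klf1 were with a pseudocount of 0.1, at 3.23. These pseudocounts were added after the data were seen.

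Outside the 10, the tested genes nearest to Gata1 by the same measure over 6 libraries were Slc38a5 (0.0957), Sphk1 (0.138), Epor (0.140) and Kel (0.179). Nearest to Klf1 were Pklr (0.148), Atp1b2 (0.187), Ermap (0.245) and Ces2g (0.273). Epor encodes the erythropoietin receptor, Kel and Ermap red cell surface proteins and Pklr the pyruvate kinase of red cells and liver. Nearest to Gata2 were Dnajc6 (0.169), Itga2b (0.180), Angpt1 (0.250) and Hoxa9 (0.263), of which Itga2b encodes a platelet integrin subunit. Nearest to Gata3 were Ttyh2 (0.0716), Mettl20 (0.0756), Csgalnact1 (0.0817) and Frmd6 (0.0905). Of these, Csgalnact1 stayed near with a pseudocount of 0.1, at 0.106, and its ratio of means was 8.02 beside 7.95 for Gata3. Ttyh2, Mettl20 and Frmd6 then differed from Gata3 by 0.443 to 0.493, and their ratios were 3.52 to 3.74. The genes nearest to Gata1 likewise differed from it by 0.354 to 0.632 with a pseudocount of 0.1. With 6 libraries and 12223 genes, close matches are a description of these mice only.

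Partners of the complex were read next, from a list of 20 genes. Of these, 6 rose, Cbfa2t3 fell and 13 did not pass, with a median log2 fold change of 0.33 (0.13 over the whole table). The share called, 35%, was near that of all tested genes, 30.1%. Erg, an ETS factor of stem cells and megakaryocytes, stood at 83.8, 65.6 and 56.1 TPM in AML and 13.5, 9.10 and 8.50 TPM in MPN, a log2 fold change of 2.62 ± 0.22 (SE, limma adjusted p = 0.000344). Runx1 rose by 0.96, Ssbp2, which stabilises LDB1, by 0.98 and Fli1, an ETS factor of megakaryocytes, by 0.60. Cbfa2t3 encodes the corepressor ETO2 of this complex and was lower in AML, at 46.8, 73.8 and 103 TPM against 131, 124 and 125 TPM in MPN (limma adjusted p = 0.0472). Gfi1b, a repressor of the red cell and megakaryocyte lines, had 40.29, 20.75 and 12.03 TPM in AML and 48.5, 52.9 and 22.0 TPM in MPN and did not pass (limma adjusted p = 0.229). Once sex was a term, 2 of the 20 passed, and 3 passed without MPN replicate 2 or 3.

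Among 8 partners and relatives of NFE2, 0 rose, Bach2 and Nfe2l3 fell and 6 did not pass, with a median of -0.15. The share called, 25%, was near that of all tested genes, 30.1%. At an unadjusted limma p under 0.05 the counts were also 0 higher and 2 lower. Mafg, a small Maf partner of NFE2, had an unadjusted limma p of 0.0665 and stood at 44.1, 39.0 and 27.7 TPM in AML and 33.8, 23.0 and 20.6 TPM in MPN. Bach2, a repressor that competes for the same DNA sites, stood at 1.43, 1.83 and 3.12 TPM in AML and 7.53, 5.30 and 8.48 TPM in MPN. Bach1 lay below MPN in all AML mice and did not pass (limma adjusted p = 0.116). The count was 1 without any MPN replicate and 0 with a term for sex.

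Of 12 other members of the GATA, FOG, TAL, LMO and LDB families, 5 were tested, and Gata4, Gata5 and Lmo3 were listed at 0 in all libraries. Gata6, Zfpm2, Tal2 and Ldb2 did not exceed 0.420 TPM in any library. Gatad1, a GATA-type zinc finger gene, rose to 75.4, 46.7 and 45.3 TPM in AML, against 31.1, 28.9 and 26.9 TPM in MPN. Trps1, which encodes an atypical GATA repressor, fell to 3.60, 3.96 and 2.84 TPM in AML, against 9.21, 8.66 and 10 TPM in MPN (limma adjusted p = 0.00257). Gatad2a and Gatad2b did not pass (limma adjusted p = 0.0530 and 0.352). The share called among the 5 was 40%, against 30.1% of all tested genes. Without MPN replicate 2 or 3, and with sex as a term, 1 of the 5 passed.

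**Figure D4:**
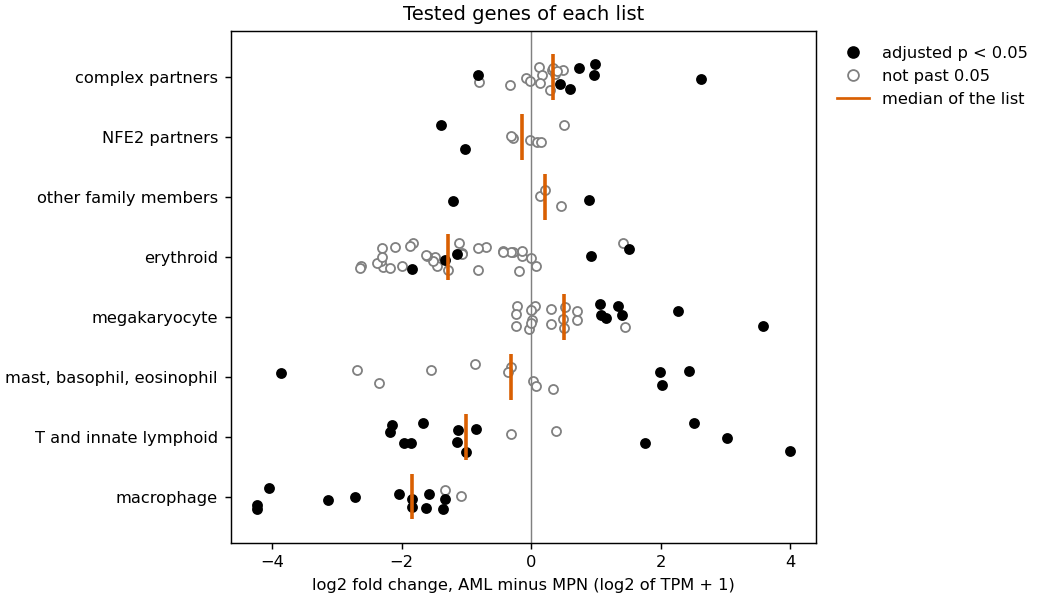
Log2 fold change of every tested gene in 8 lists, AML minus MPN, filled where the adjusted p is under 0.05, with the median of each list as a bar. The erythroid list has 3 falls and 2 rises past the threshold, and the megakaryocyte list has 7 rises and 0 falls.

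Of 39 tested erythroid genes, known targets of GATA1 or KLF1 and mature red cell markers, 2 rose, 3 fell and 34 did not pass. The share called was 12.8%, against 30.1% of all tested genes. At an unadjusted limma p under 0.05, 2 were higher and 14 lower. The groups overlapped for all but 8 of the 39, while they did not overlap for 50.9% of all tested genes. The median log2 fold change was -1.28 (0.13 over the whole table). Those with the smallest p were Bcl11a, Bcl2l1, Tspan33 and Cited2. Bcl11a, a repressor of fetal globin, fell by 1.14 on the log2 scale, and the survival gene Bcl2l1 rose by 1.51. Tspan33 and Cited2 had log2 fold changes of -1.34 and 0.93, and Epb4.2, also called lower, had one of -1.83. Epor stood at 15.8, 5.58 and 0.410 TPM in AML and 33.68, 30.96 and 15.94 TPM in MPN and did not pass (limma adjusted p = 0.0689), although the groups did not overlap. The spread between AML mice was wide, with the summed level of the 33 genes other than globins at 2292, 1067 and 743 TPM in AML and 2700, 2441 and 1526 TPM in MPN. The 6 globin genes summed to 5993, 1384 and 27.9 TPM in AML and 4057, 1662 and 1616 TPM in MPN, and their near-identical copies make single globin values uncertain. AML replicate 1 thus held more globin transcripts than any MPN mouse while its Gata1 and Klf1 were below theirs. The count of calls rested on the mice entered. Without AML replicate 1, 23 of 39 passed, 2 higher and 21 lower, with a term for sex 1 higher and 22 lower, and without MPN replicate 1 or 2 only 3 passed. Red cells had been lysed before the selection.

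Macrophage markers fell. Of 14 tested, 12 fell and 0 rose in the limma fit, or 13 and 0 at an unadjusted p under 0.05. The share called was 85.7%, against 30.1% of all tested genes, and 10.01% of all tested genes were called lower. Summed levels were 98.5, 185 and 168 TPM in AML and 475, 447 and 579 TPM in MPN. The 4 with the smallest p were C1qb, C1qa, Mrc1 and C1qc, and C1qa was listed at 0 in AML replicates 2 and 3. Macrophages of the spleen take up red cells. Their part in the erythroid values was not tested.

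Of 24 tested megakaryocyte and platelet genes, 7 rose, 0 fell and 17 did not pass in the limma fit, or 10 rose and 0 fell at an unadjusted p under 0.05, with a median of 0.50. The share called, 29.2%, was near the 30.1% of all tested genes. The thrombin receptor gene F2r stood at 202, 69.3 and 72.6 TPM in AML and 8.47, 10.6 and 4.56 TPM in MPN, a log2 fold change of 3.58 ± 0.45 (SE, limma adjusted p = 0.00167). Itga2b, which encodes CD41 and also marks early progenitors, was at 75.4, 31.4 and 30.4 TPM in AML and 11.5, 8.88 and 4.68 TPM in MPN. The membrane traffic genes Rab27b and Rab27a rose by 1.40 and 1.07 on the log2 scale. Of the von Willebrand receptor genes, Gp9 rose by 1.34 while Gp1ba, Gp1bb and Gp5 did not pass. The platelet chemokine genes did not pass either. Pf4 was at 24.9, 55.9 and 17.2 TPM in AML and 34.1, 32.0 and 19.8 TPM in MPN (limma adjusted p = 0.932), and Gp1bb and Gp5 did not exceed 2.09 TPM in any library. Tubb1, the platelet tubulin gene and a known NFE2 target, was at 0.0700 to 0.360 TPM in AML and 0.210 to 0.500 TPM in MPN, below the filter. Once sex was a term, 4 of the 24 passed.

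Mast cells, basophils and eosinophils keep GATA factors on, and of 13 tested genes of these cells 3 rose, Epx fell and 9 did not pass, with a median of -0.31. The share called, 30.8%, was about that of all tested genes, 30.1%. At an unadjusted limma p under 0.05, the counts were 3 higher and 5 lower. Cpa3, the mast cell carboxypeptidase gene, stood at 63.9, 52.0 and 32.6 TPM in AML and 11.1, 8.04 and 5.6 TPM in MPN, a log2 fold change of 2.44 ± 0.30 (SE, limma adjusted p = 0.00163). Mcpt8, a basophil protease gene, and Slc18a2, a monoamine transporter gene, rose by 1.98 and 2.03. Epx, the eosinophil peroxidase gene, stood at 1.3, 6.51 and 0 TPM in AML and 89.7, 69.7 and 7.15 TPM in MPN (limma adjusted p = 0.0285). The tryptase genes Tpsb2 and Tpsab1 and the chymase gene Cma1, which define mature mast cells, were at or below 0.1 TPM in every AML library and at or below 1.22 TPM in every MPN library. The summed level of the 19 genes was 555, 809 and 389 TPM in AML and 1315, 1082 and 511 TPM in MPN. Prg2, Csf2rb and the selection marker Kit made up most of this sum in every library, so it says little of the other genes. Prg2 was at 133, 291 and 10.5 TPM in AML and 748, 615 and 127 TPM in MPN.

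Beside Gata3, genes of T cells and innate lymphoid cells moved in both directions. Of 15 tested, 4 rose, 9 fell and 2 did not pass, with a median of -0.999. The share called was 86.7%, against 30.1% of all tested genes. Tox, Lat, Il2ra and Zbtb16 rose, with Tox at 57.0, 19.3 and 28.6 TPM in AML and 1.09, 0.880 and 1.22 TPM in MPN, and Lat, an adaptor of T cells, mast cells and platelets, at 88.1, 37.5 and 31.3 TPM in AML and 4.87, 5.10 and 4.78 TPM in MPN. The T cell receptor subunit genes Cd3d, Cd3e and Cd3g fell and did not exceed 0.570 TPM in any AML library, with 1.27 TPM or more in every MPN library. Cd5 fell by 2.14 and the cytokine receptor gene Il7r fell by 2.18 on the log2 scale. The summed level of the 22 genes was 259, 127 and 143 TPM in AML and 120, 104 and 138 TPM in MPN. Genes of this list thus lay on both sides of the rise of Gata3, and which cells held its RNA was not tested.

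**Figure D5:**
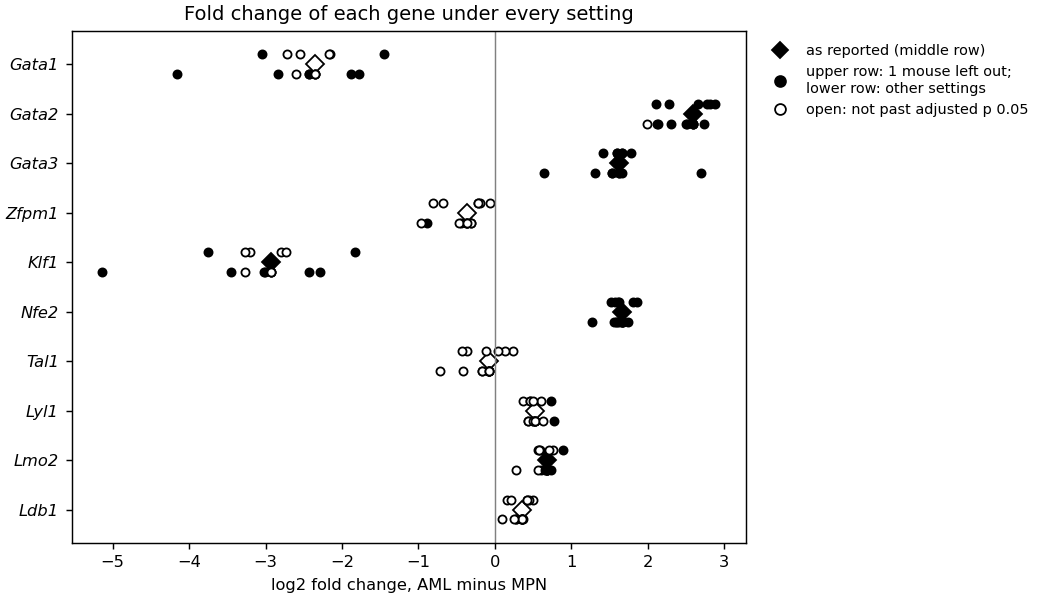
Log2 fold change of each gene as reported (diamonds) and under each alternative (circles, with 1 mouse left out above and other settings below), filled where the adjusted p is under 0.05. Nfe2 and Gata3 are filled throughout, Gata1, Klf1 and Lmo2 are mixed, and Tal1 lies on both sides of 0.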

How the data were processed

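RNA-seq libraries of c-Kit+ splenocytes from 3 AML and 3 MPN mice were made with stranded poly-A kits and paired reads of 75 bases, per the labels' protocols. The authors deposited TPM by gene symbol, which the file headers give as gene-level RSEM output, 1 column per mouse. The authors also deposited RPKM by Ensembl gene, where 25213 of 25991 identifiers matched a symbol. Low values show that 1 read had been added to every gene in that table. The submitters' processing notes name TopHat2, RSEM and Bowtie2 with the builds mm9 and mm10. Which build served either table is not stated in them, so coordinates from GENCODE and RefSeq serve for location only. TPM keeps no depth, and counts of reads were not analysed here. Relative depth came from the RPKM steps.

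Values were compared as log2(TPM + 1) for genes that reached 1 TPM in 3 or more libraries. The test was limma 3.58.1 (R 4.3.3, trended variance, no covariate), two-sided, at a Benjamini-Hochberg adjusted p under 0.05. This scale understates the change of low genes. The code was tested on simulated data. Replicate numbers follow accession order and pair no mice. The labels make each library a mouse of its own.

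The 10 genes and the lists were chosen with earlier results of these data known. Named from a list were the 4 genes with the smallest p, and from all tested genes the 4 most like Gata1, Gata2, Gata3 and Klf1. Other genes given were chosen after their values were seen: Gfi1b, Epor, Epb4.2, Pf4, Gp9, Gp1ba, Gp1bb, Gp5, Tubb1, Prg2, Csf2rb, Il2ra, Zbtb16 and the Cd3 genes. So were the mast cell proteases and the relatives at or near 0, and all ratios but that of Gata2 to Gata1. Cbfa2t3, Kit, Myb and Mpo were also given outside the rule of the smallest p. Alternatives were a pseudocount of 0.1 or 5, another TPM minimum (5, or none), median and quantile scaling, RPKM, no trend, array weights, a term for sex read from Xist, and leaving out each mouse.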

Additional observations from a re-analysis of the deposited data

How the results depend on the processing

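No paired analysis was possible because the labels give no replicate numbers shared between the groups. In refits of the 10 single genes, direction and side of the threshold were kept 128 times, 11 newly passed, 16 no longer passed and 3 turned sign. Tal1 turned positive without AML replicate 3 (0.23) and without MPN replicate 1 or 2 (0.13 and 0.05), over a leave-one-out range of -0.42 to 0.23, and never passed. The count of 5 among the 10 genes was 3 with no filter, 8 with array weights, and 3 to 6 with 1 mouse left out. The count of 3678 over all genes was 1208 with a term for sex and 2009 to 3705 with 1 mouse left out. With array weights, whose estimate stopped before it converged, 11 complex partners, 23 erythroid and 7 mast, basophil and eosinophil genes passed. With a term for sex, 2 complex partners, 0 NFE2 partners, 1 other family member, 23 erythroid, 4 megakaryocyte and 4 progenitor genes passed. With a filter at 5 TPM, 1 NFE2 partner and 6 T and innate lymphoid genes passed, and in RPKM 1 and 8. With 1 mouse left out, counts were 3 to 7 for complex partners, 1 to 2 for NFE2 partners, 1 to 3 for other family members and 3 to 23 for erythroid genes. The cause was not tested, beyond fewer genes or mice in a fit. Gata1 minus Gata2 differed by -3.91 with a pseudocount of 5 and by -5.32 to -4.33 with 1 mouse left out. For Tal1, Zfpm1 and Ldb1, standard errors of 0.38, 0.42 and 0.20 on the log2 scale limit what can be said of changes near 0.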
